A study of Arabidopsis thaliana with 12 samples.

Results

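Glucosinolates are sulfur-rich defence compounds of the cabbage order. Transcripts of 39 genes that build them or switch them on were followed, out of 37885 genes in a table of counts. The 39 genes were chosen by identifier, with earlier results of these data known, and all of them were in the table. The aliphatic branch holds 27 of them, the indolic branch 9, and 3 core enzymes serve both. RNAseq had been made from poly(A)-selected RNA of whole Arabidopsis thaliana seedlings, untreated and 7 days old, grown in continuous light on medium without sucrose. There were 3 genotypes with 4 libraries each. The prt6 erfVII seedlings (labelled prt6-1erfvii) carry prt6-1 together with mutant alleles of 5 group VII ethylene response factors (ERFVIIs), which are HRE1, HRE2, RAP2.2, RAP2.3 and RAP2.12. The prt6 seedlings (labelled prt6-1) are mutated in PRT6 alone, the E3 ligase of the N-degron pathway through which ERFVIIs are degraded. Col-0 is the wild-type accession. Seedlings with mutant ERFVIIs and an intact PRT6 were not among the libraries. By the labels, loss of the ERFVIIs was thus compared only where PRT6 was mutated too.

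Totals on genes were between 23156637 and 30582461 counts per library. The label prt6 was not borne out by PRT6 itself, whose level was 10.094, 9.24, 7.21 and 9.69 CPM in prt6 erfVII, against 73.7, 61.1, 76.5 and 45.2 CPM in the libraries labelled prt6 and 62.6, 64.9, 65.2 and 56.2 CPM in Col-0 (CPM, counts scaled by library size after TMM normalization). The log2 fold change of PRT6 in prt6 over Col-0 was 0.04 (SE 0.15, adjusted p = 0.954). Gene counts cannot tell which stretch of a transcript was made, so these libraries are called "labelled prt6" and every direction given for them rests on that label. The comparison of prt6 erfVII over prt6 thus differed in PRT6 transcript level as well as in the ERFVIIs. The parts of PRT6 and of the ERFVIIs in that comparison cannot be told apart. Among the ERFVIIs, HRE1 was at 0 counts in all 4 libraries of prt6 erfVII. RAP2.3 was at 0.371 to 0.942 CPM in prt6 erfVII, against 57.1 to 83.7 CPM in the libraries labelled prt6 and 77.1 to 97.9 CPM in Col-0. HRE2 was at 0 to 0.074 CPM in prt6 erfVII, against 2.124 to 3.20 CPM in the libraries labelled prt6 and 0.273 to 1.26 CPM in Col-0. RAP2.2 and RAP2.12 transcripts were lowered but present, at 56.2 to 61.1 CPM and 48.1 to 53.8 CPM in prt6 erfVII, against 99.955 to 111.5 CPM and 88.7 to 100.2 CPM in Col-0. Replicates 3 and 4 labelled prt6 differed most within a genotype, with a chi-square per degree of freedom of 15.1, and calls that turn on replicate 4 are also given without it. Markers of shoot (RBCS1A, LHCB1.3 and RCA) and root (PYK10 and 6 others) were present in every library. Summed root markers, nearly all of them PYK10, were at 5177 to 5948 CPM in prt6 erfVII, 4528 to 5006 CPM in the libraries labelled prt6 and 4329 to 4973 CPM in Col-0, and summed shoot markers at 36303 to 41450 CPM, 35938 to 40548 CPM and 40402 to 42319 CPM in the same genotypes. PYK10 rose in prt6 erfVII over prt6, by a log2 fold change of 0.26, while the root hair genes COBL9, EXPA7 and EXPA18 fell (-1.12, -0.98 and -1.23). Over Col-0 the same genes were called in the same directions. Seed storage markers summed to 0.128 to 76.6 CPM, 1.88 to 20.2 CPM and 0.118 to 39.6 CPM. The part of these markers in the results was not tested, and in whole seedlings fewer cells of a type and less RNA per cell cannot be told apart.

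In Arabidopsis the aliphatic compounds start from methionine, whose side chain is lengthened in a cycle of transamination, condensation, isomerisation and oxidation. The core pathway then makes an aldoxime (CYP79 enzymes), activates it (CYP83 enzymes), adds sulfur from glutathione, and finishes the molecule with a glucose and a sulfate. Side chains are oxidised or otherwise altered at the end. Indolic compounds start from tryptophan and use their own CYP79 and CYP83 enzymes. R2R3 MYB factors govern the branches, with MYC factors as partners: MYB28, MYB29 and MYB76 act on the aliphatic genes, and MYB34, MYB51 and MYB122 on the indolic genes.

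Upstream sequences of 3 aliphatic genes are shown because no other member has the AC element ACCTACC, a kind of sequence that R2R3 MYB factors bind, in the 250 bases before its annotated start. They were read from the TAIR10.1 assembly, whose nuclear sequence is that of TAIR10, and run 5′ to 3′ on the strand of the gene. Capitals mark ACCTACC or its reverse complement GGTAGGT and, in CYP83A1, the palindromic G-box CACGTG, to which MYC factors bind. IPMI2 is a small isopropylmalate isomerase subunit of chain elongation, CYP79F2 forms the aldoxime and CYP83A1 oxidises it.
IPMI2 upstream, chr2:17920397-17920646, plus strand: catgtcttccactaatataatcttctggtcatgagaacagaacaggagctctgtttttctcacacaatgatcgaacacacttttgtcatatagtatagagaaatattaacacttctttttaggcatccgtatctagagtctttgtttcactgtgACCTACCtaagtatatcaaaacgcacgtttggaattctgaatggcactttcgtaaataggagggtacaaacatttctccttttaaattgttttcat
CYP79F2 upstream, chr1:5604794-5605043, plus strand: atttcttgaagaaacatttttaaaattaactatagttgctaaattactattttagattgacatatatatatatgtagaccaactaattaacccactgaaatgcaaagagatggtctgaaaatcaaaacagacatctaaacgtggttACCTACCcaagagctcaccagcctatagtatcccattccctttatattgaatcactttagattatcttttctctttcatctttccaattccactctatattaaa
CYP83A1 upstream, chr4:7992430-7992679, minus strand: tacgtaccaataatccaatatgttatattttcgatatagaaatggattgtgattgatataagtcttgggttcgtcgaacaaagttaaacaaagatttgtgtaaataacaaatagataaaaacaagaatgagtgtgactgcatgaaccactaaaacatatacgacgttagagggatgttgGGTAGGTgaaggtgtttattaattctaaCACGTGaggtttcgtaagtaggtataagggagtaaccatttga
On either strand, ACCTACC stood in this window in 3 of the 27 aliphatic members (11.1%), against 1.12% of the 37880 genes with such a window. Another AC element, ACCAACC, stood in 4 other aliphatic members, BAT5, IIL1, IPMI1 and SOT17 (14.8%, against 2.75% of all genes). It was not particular to that branch, since it also stood in the indolic SOT16 and the shared UGT74B1. In all, 6 of 39 members had it (15.4%). The G-box was found in 3 of 39 members (7.69%) and in 5.39% of all genes. The hypoxia-responsive promoter element (HRPE), through which ERFVIIs act on genes of low oxygen, was searched in the 1000 bases upstream on both strands. Only exact matches to the consensus were counted, and these stood in 0 of 39 members and in 25 of 37880 genes (0.066%). At so low a share, 0 of 39 does not set the members apart from other genes. The paper searched promoters and gene loci with the motif scanner FIMO, an unlike search. It reports copies of the element in many genes that differ between prt6 and prt6 erfVII. A match describes letters in a window and is not evidence of binding.

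Nearly all aliphatic members tested were lower in prt6 erfVII than in Col-0, and most members of elongation and core synthesis were lower in the libraries labelled prt6 too. Of the 26 aliphatic members with enough counts to be tested, 24 fell in prt6 erfVII over Col-0 and 2 were not called, with a median log2 fold change of -0.67. Over all genes, 37.2% were called in that comparison, 18.5% higher and 18.7% lower, and the median was -0.01. The prt6 over Col-0 comparison had 16 of 26 lower and 10 not called, with a median of -0.40 (all genes 0.0022). Only 2.18% of all genes were called there, 1.09% in each direction. For prt6 erfVII over prt6, 12 of 26 fell and 1 rose, with a median of -0.20 (all genes 0.00088), against 31.3% of all genes called, 16.6% higher and 14.7% lower. Calls are by edgeR's quasi-likelihood test with a Benjamini-Hochberg adjusted p under 0.05 over all genes tested, as are all adjusted p given here unless DESeq2 is named. The comparisons share libraries in pairs, so that high levels in the libraries labelled prt6 would raise prt6 over Col-0 and lower prt6 erfVII over prt6 at once.

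The indolic branch was divided. Of its 8 tested members, 3 rose and 4 fell in prt6 erfVII over Col-0, 2 rose and 3 fell in prt6 over Col-0, and 5 rose and 2 fell in prt6 erfVII over prt6. Their median log2 fold changes were -0.16, -0.19 and 0.21 in these comparisons. The 3 shared enzymes all fell in prt6 erfVII, with medians of -0.59 over Col-0 and -0.43 over prt6. Neither edgeR nor DESeq2 called any of them in prt6 over Col-0 (0 of 3), and 2 were lower at an unadjusted p under 0.05, as were 6.46% of all genes (6.07% were higher).

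Counted by libraries that did not overlap, 24 of 26 aliphatic members were lower in prt6 erfVII than in Col-0, against 17.3% of all genes. The number was 20 of 26 in prt6 over Col-0, against 3.98%, and in prt6 erfVII over prt6 11 of 26, against 15.2%. Among the 8 indolic members, those higher without overlap were 3 in prt6 erfVII over Col-0 (17.4% of all genes), 2 in prt6 over Col-0 (3.71%) and 4 in prt6 erfVII over prt6 (15.9%). Those lower without overlap were 4, 4 and 2 in the same comparisons, against 17.3%, 3.98% and 15.2% of all genes.

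**Figure D1:**
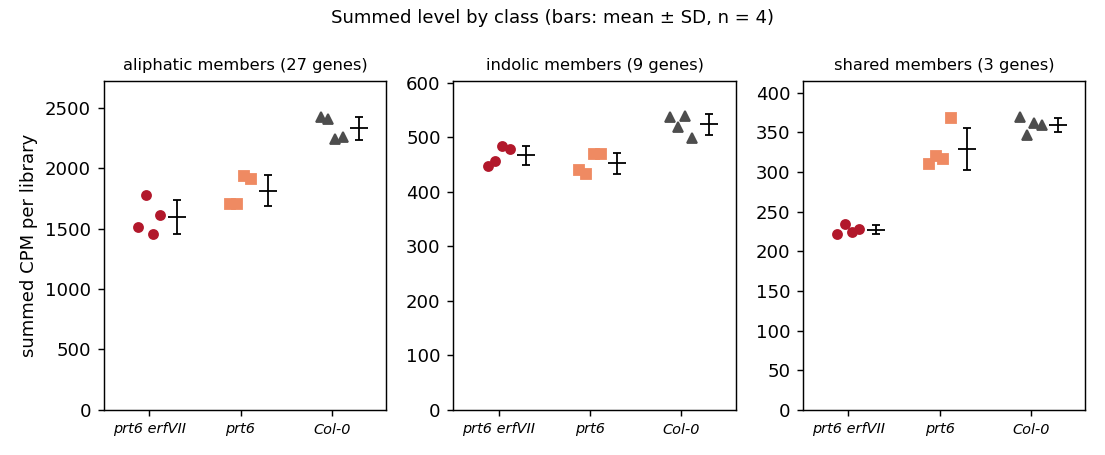
Summed CPM of the aliphatic, indolic and shared members in each library, by genotype label, with the mean and SD over 4 libraries beside the points. Aliphatic sums averaged 1593 in prt6 erfVII, 1814 in the libraries labelled prt6 and 2330.0 in Col-0, and no Col-0 library overlapped another genotype.

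Summed over the 27 aliphatic genes, levels were 1593 ± 141 CPM in prt6 erfVII and 1814 ± 128 CPM in the libraries labelled prt6, against 2330.0 ± 95.9 CPM in Col-0 (SD, n = 4 each). The mutant means were thus 68.4% and 77.8% of the Col-0 mean. The 9 indolic genes summed to 466 ± 18.0 CPM in prt6 erfVII and 452 ± 19.3 CPM in the libraries labelled prt6, against 524 ± 19.1 CPM in Col-0 (SD, n = 4 each), which is 89.1% and 86.4% of Col-0. The shared genes summed to 227 ± 5.62 CPM in prt6 erfVII and 329 ± 26.4 CPM in the libraries labelled prt6, against 359 ± 9.22 CPM in Col-0 (SD, n = 4 each). A few abundant genes carry these sums. Per kilobase of exon, the glutathione transferase GSTU20 was the most abundant member in every genotype, at 209 ± 30.8 CPM per kb in prt6 erfVII, 252 ± 36.2 CPM per kb in the libraries labelled prt6 and 331 ± 28.7 CPM per kb in Col-0 (SD, n = 4 each). The isomerase subunit IIL1 and the gamma-glutamyl peptidase GGP1 came next. In the libraries labelled prt6 these did not differ beyond their spread, at 152 ± 3.30 and 144 ± 13.4 CPM per kb (SD, n = 4 each). Levels of the regulators lay far apart. MYB28 had 30.1 ± 1.68 CPM per kb in Col-0 (SD, n = 4), and MYB76 and MYB122 were below 1 CPM per kb in every genotype.

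**Figure D2:**
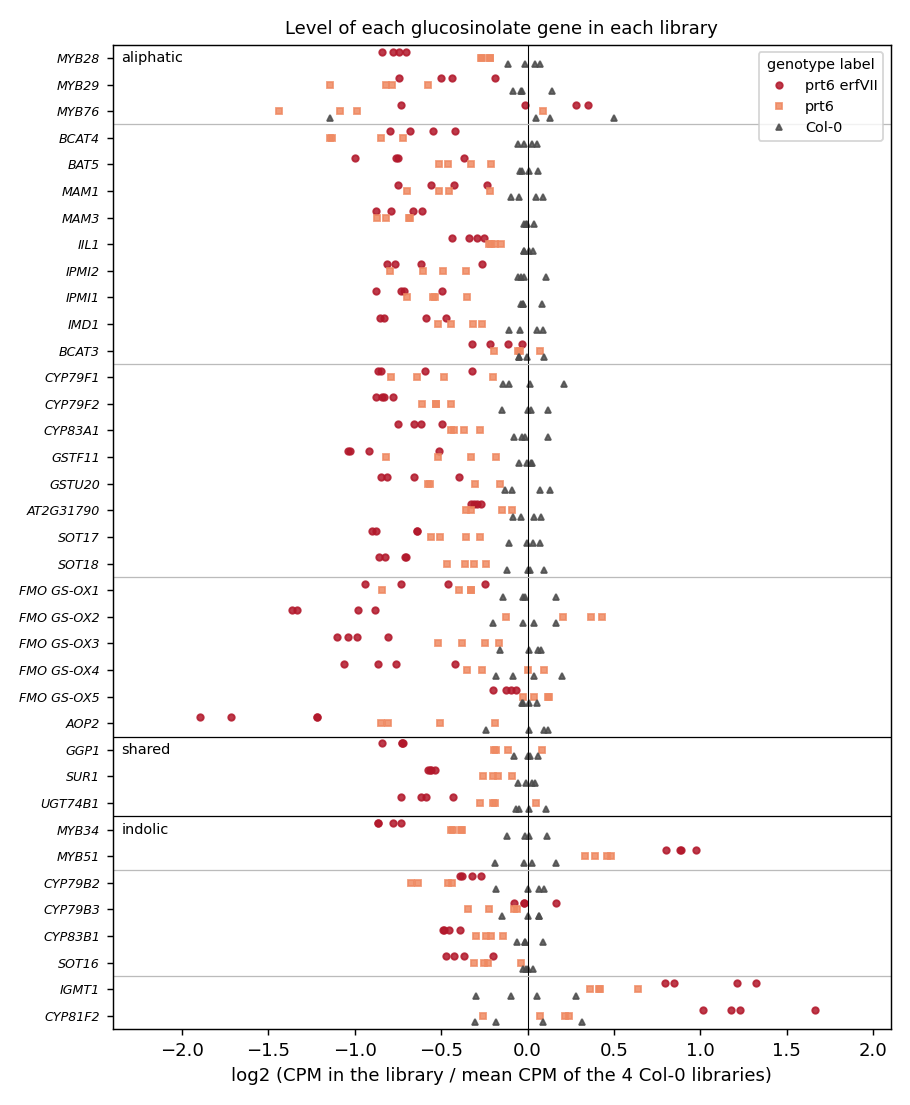
Each point is a library: log2 of its CPM over the mean of the 4 Col-0 libraries, for the 37 members tested, in rows by branch and step, with prt6 erfVII above the libraries labelled prt6 and Col-0 in each row. Most aliphatic rows have both mutant genotypes left of 0, while MYB51, IGMT1 and CYP81F2 lie to the right in prt6 erfVII.

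Among the aliphatic regulators, MYB28 (AT5G61420, chromosome 5 from 24689069 to 24691187 on the minus strand) is the main activator of the branch. Its level was 35.6, 36.6, 33.2 and 34.8 CPM in prt6 erfVII, against 49.7, 49.4, 51.2 and 51.2 CPM in the libraries labelled prt6 and 59.0, 62.7, 55.2 and 61.5 CPM in Col-0. No library overlapped between any 2 genotypes, with prt6 erfVII lowest. Its log2 fold change was -0.51 (SE 0.06, adjusted p = 6.56e-06) in prt6 erfVII over prt6 and -0.77 (SE 0.06, adjusted p = 4.6e-10) over Col-0. It was -0.24 (SE 0.06, adjusted p = 0.0469) in prt6 over Col-0. That call was lost in 6 of the 8 fits that left out a library, with adjusted p up to 0.175. MYB29 (AT5G07690, chromosome 5 from 2446669 to 2448584 on the plus strand) acts beside MYB28 and is induced by jasmonate. Its level was 7.83, 9.29, 6.33 and 7.48 CPM in prt6 erfVII, against 6.14, 6.01, 7.11 and 4.79 CPM in the libraries labelled prt6 and 11.7, 10.3, 10.005 and 10.3 CPM in Col-0. Here the libraries labelled prt6 were lowest on average, and both mutant genotypes lay below all Col-0 libraries. MYB29 fell in prt6 over Col-0, with a log2 fold change of -0.81 (SE 0.12, adjusted p = 0.000477). It fell in prt6 erfVII over Col-0 by 0.45 (SE 0.12, adjusted p = 0.00331) on the log2 scale. The value in prt6 erfVII over prt6, 0.38 (SE 0.14, adjusted p = 0.0545), did not pass the test, but did in 1 fit over all 12 libraries (adjusted p = 0.0343) and without replicate 3 of prt6 erfVII or replicate 3 labelled prt6 (adjusted p = 0.0245 and 0.0295). MYB76 lies beside MYB29 and had between 8 and 33 counts per library. With all libraries it was called in none of the 3 comparisons, with log2 fold changes of 0.76 in prt6 erfVII over prt6, 0.02 in prt6 erfVII over Col-0 and -0.72 in prt6 over Col-0. Without replicate 3 labelled prt6 it was called higher in prt6 erfVII over prt6, with a log2 fold change of 1.19 (adjusted p = 0.0417), and its log2 fold change in prt6 over Col-0 ranged from -1.16 to -0.51 when a library was left out. MYB29 and MYB76 lie 1.96 and 1.97 Mb from PRT6, where a chromosome segment carried along with prt6-1 and the mutation itself cannot be told apart.

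**Figure D3:**
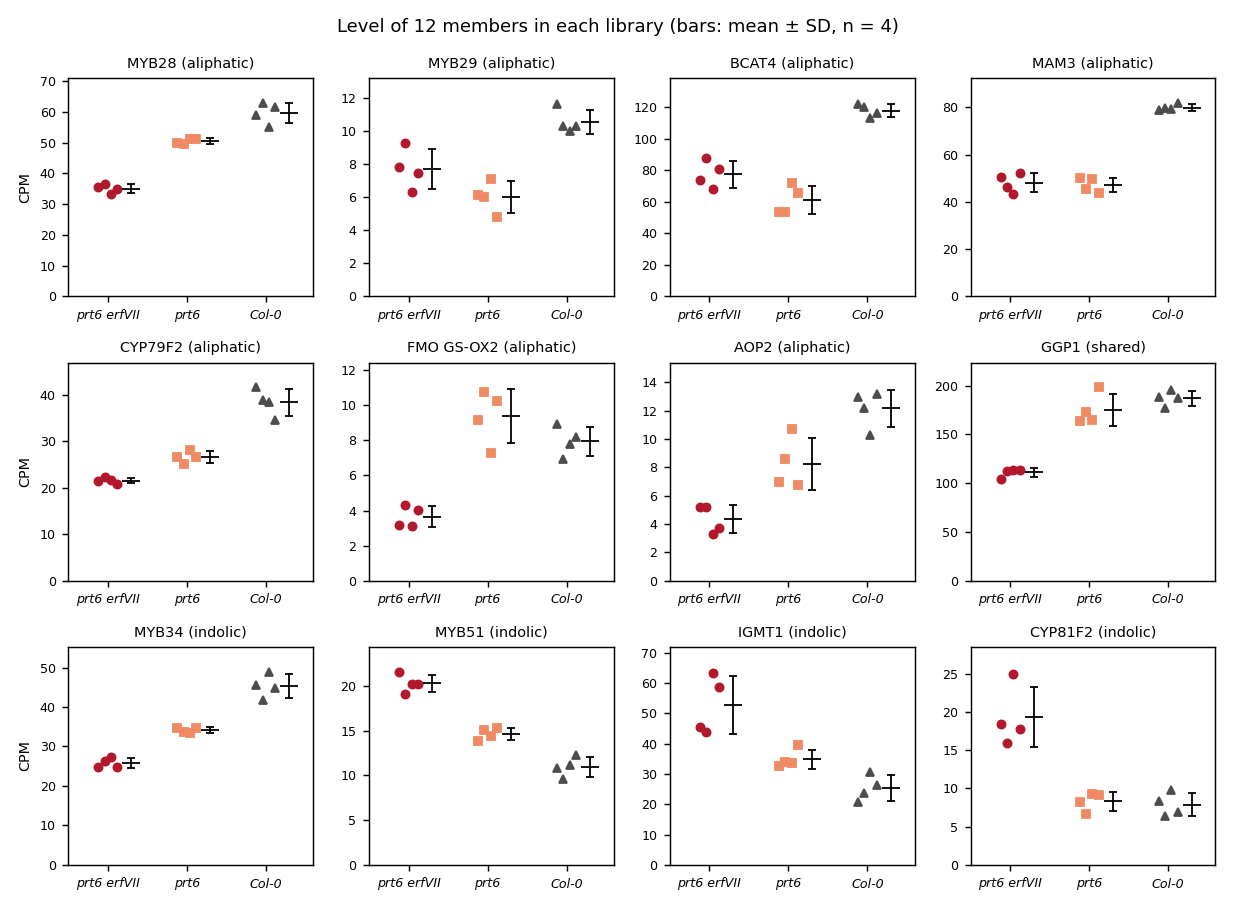
CPM of 12 members in each of the 4 libraries per genotype label, with the mean and SD beside the points and axes from 0. MYB28 and MYB34 are lowest in prt6 erfVII and highest in Col-0, while MYB51 and IGMT1 are highest in prt6 erfVII and lowest in Col-0.

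All 9 chain elongation genes fell in prt6 erfVII over Col-0 and 7 of 9 fell in prt6 over Col-0, with medians of -0.60 and -0.46. Against prt6, 2 fell in prt6 erfVII and 1 rose. The gene that rose was BCAT4 (AT3G19710, chromosome 3 from 6846969 to 6849582 on the minus strand), the aminotransferase that opens the elongation cycle by deaminating methionine. Its level was 73.5, 87.9, 67.8 and 80.4 CPM in prt6 erfVII, against 53.7, 53.2, 71.5 and 65.5 CPM in the libraries labelled prt6 and 122, 119.7, 113 and 116 CPM in Col-0. The libraries labelled prt6 were lowest on average and overlapped in part with prt6 erfVII, and Col-0 lay above both. BCAT4 had the most negative log2 fold change of any tested member in prt6 over Col-0, -0.95 (SE 0.08, adjusted p = 5.46e-07). It was -0.60 (SE 0.06, adjusted p = 9.29e-08) in prt6 erfVII over Col-0 and 0.36 (SE 0.10, adjusted p = 0.0126) in prt6 erfVII over prt6. The gene overlaps AT3G19700 on the other strand, which leaves its counts uncertain if strand was not used in counting, and it lies 1.14 Mb from RAP2.3.

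MAM3 (AT5G23020, chromosome 5 from 7718118 to 7721866 on the plus strand; listed as IMS2) is a methylthioalkylmalate synthase that condenses the chain with acetyl-CoA. Its level was 50.5, 46.2, 43.5 and 52.3 CPM in prt6 erfVII, against 49.9, 45.2, 49.7 and 43.6 CPM in the libraries labelled prt6 and 78.6, 79.7, 79.4 and 81.9 CPM in Col-0. The mutant genotypes overlapped each other and neither reached Col-0. MAM3 fell in prt6 erfVII over Col-0 (-0.73, SE 0.06, adjusted p = 9.65e-10) and in prt6 over Col-0 (-0.76, SE 0.06, adjusted p = 1.11e-07). Its log2 fold change in prt6 erfVII over prt6 was 0.05 (SE 0.07, adjusted p = 0.692). The neighbouring synthase MAM1, the isomerase subunits IPMI1 and IPMI2, the dehydrogenase IMD1 and the plastid transporter BAT5 fell in prt6 over Col-0 as well. Their log2 fold changes there were -0.46, -0.53, -0.55, -0.38 and -0.37. IPMI2 lies 1.58 Mb from HRE2. The large subunit IIL1 missed the threshold in prt6 over Col-0 (-0.19, SE 0.05, adjusted p = 0.0509) but was called by DESeq2 (adjusted p = 0.000797) and without replicate 4 labelled prt6 (adjusted p = 0.00675). BCAT3, which also serves branched-chain amino acid synthesis, was at -0.05 there. BCAT3 had the smallest change of the elongation genes in prt6 erfVII over Col-0 too, a log2 fold change of -0.17 (SE 0.06, adjusted p = 0.0298). That call was lost in 4 of 8 fits without a library, with adjusted p up to 0.113. BAT5 and IMD1 fell in prt6 erfVII over prt6 (-0.32 and -0.28), but not in 6 and 3 of the 8 fits without a library. For BAT5 these included the one without replicate 4 labelled prt6 (adjusted p = 0.0764). IMD1 overlaps a gene on the other strand.

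Of the 8 aliphatic core genes, 8 fell in prt6 erfVII over Col-0, 5 in prt6 over Col-0 and 5 in prt6 erfVII over prt6, with medians of -0.71, -0.40 and -0.28. CYP79F2 (AT1G16400, chromosome 1 from 5605044 to 5607498 on the plus strand) makes aldoximes from long-chain methionine derivatives. Its level was 21.3, 22.3, 21.5 and 20.9 CPM in prt6 erfVII, against 26.6, 25.1, 28.1 and 26.6 CPM in the libraries labelled prt6 and 41.6, 38.8, 38.3 and 34.6 CPM in Col-0. The genotypes formed 3 separate levels, prt6 erfVII lowest and Col-0 highest. Its log2 fold change was -0.29 (SE 0.07, adjusted p = 0.00428) in prt6 erfVII over prt6 and -0.83 (SE 0.07, adjusted p = 1.06e-09) in prt6 erfVII over Col-0. It was -0.53 (SE 0.07, adjusted p = 0.000181) in prt6 over Col-0. The tandem neighbour CYP79F1, which accepts short and long chains, varied more. Its level was 47.6, 68.4, 46.9 and 56.7 CPM in prt6 erfVII, against 49.5, 54.8, 74.4 and 61.2 CPM in the libraries labelled prt6 and 99.0, 86.2, 77.5 and 79.4 CPM in Col-0. Both mutant genotypes lay below every Col-0 library and overlapped each other. CYP79F1 fell in prt6 erfVII over Col-0 (-0.64, SE 0.13, adjusted p = 0.00442). It missed the threshold in prt6 over Col-0 (-0.51, SE 0.12, adjusted p = 0.0504). It passed without replicate 3 labelled prt6 (adjusted p = 0.000413) and by DESeq2 (adjusted p = 0.000375). Of the 75-base windows of the transcripts, 99.17% were unique in the genome for CYP79F1 and 98.55% for CYP79F2.

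CYP83A1, whose upstream sequence is shown above, fell in all 3 comparisons. Its log2 fold change was -0.23 (SE 0.07, adjusted p = 0.0109) in prt6 erfVII over prt6, -0.63 (SE 0.06, adjusted p = 1.29e-08) in prt6 erfVII over Col-0 and -0.38 (SE 0.06, adjusted p = 0.001) in prt6 over Col-0. The sulfotransferases SOT17 and SOT18, which add the last sulfate, fell in all 3 as well. SOT17 was at -0.33, -0.76 and -0.42 and SOT18 at -0.41, -0.77 and -0.34, with the comparisons as for CYP83A1. SOT18 lies 0.620 Mb from HRE1. Glutathione transferases are thought to load the sulfur. GSTU20 fell in prt6 erfVII over Col-0 (-0.67, SE 0.09, adjusted p = 0.000125). It also fell in prt6 over Col-0 (-0.39, SE 0.09, adjusted p = 0.0378), though not in 6 of 8 fits without a library. GSTF11 fell in prt6 erfVII over Col-0 (-0.86, SE 0.12, adjusted p = 3.31e-06). Its call in prt6 erfVII over prt6 (-0.40, SE 0.15, adjusted p = 0.0468) was lost in 6 of 8 such fits, among them the one without replicate 4 labelled prt6 (adjusted p = 0.125). In prt6 over Col-0 GSTF11 was not called (-0.44, SE 0.12, adjusted p = 0.0539), but it was without that library (adjusted p = 0.00541) and by DESeq2 (adjusted p = 0.0257). It overlaps a gene on the other strand. AT2G31790 is annotated as a UDP-glycosyltransferase superfamily protein and has overlapping genes on the other strand. It had the smallest change of the core genes in prt6 erfVII over Col-0 (-0.30, SE 0.05, adjusted p = 8.87e-05) and was not called in the other comparisons with all libraries. In prt6 over Col-0 (-0.23, SE 0.07, adjusted p = 0.102) it was called without replicate 4 labelled prt6, at a log2 fold change of -0.27 (adjusted p = 0.00671).

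Side chain genes included the most negative log2 fold changes of prt6 erfVII. AOP2 (AT4G03060, chromosome 4 from 1351688 to 1354096 on the minus strand) encodes, where functional, an enzyme that makes alkenyl glucosinolates, and is known to be disrupted in Col-0. Its level was 5.23, 5.22, 3.28 and 3.71 CPM in prt6 erfVII, against 6.94, 8.56, 10.7 and 6.75 CPM in the libraries labelled prt6 and 13.0, 12.2, 10.3 and 13.2 CPM in Col-0. Every prt6 erfVII library lay below every library labelled prt6. AOP2 was 2.79-fold lower in prt6 erfVII than in Col-0, a log2 fold change of -1.48 (SE 0.14, adjusted p = 1.38e-08). Against prt6, its log2 fold change in prt6 erfVII was -0.90 (SE 0.18, adjusted p = 0.000802). AOP2 was at -0.56 (SE 0.14, adjusted p = 0.0345) in prt6 over Col-0, a call lost in 5 of 8 fits without a library. The neighbour AOP3, which makes hydroxyalkyl forms, had at most 7 counts in any library and was not tested.

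Flavin monooxygenases of the FMO GS-OX family oxidise the sulfur of the methionine side chain. FMO GS-OX2 (AT1G62540, chromosome 1 from 23151634 to 23155728 on the plus strand) was at 3.15, 4.32, 3.10 and 4.04 CPM in prt6 erfVII, against 9.19, 10.7, 7.29 and 10.3 CPM in the libraries labelled prt6 and 8.92, 6.94, 7.83 and 8.17 CPM in Col-0. Only prt6 erfVII stood apart. FMO GS-OX2 was 2.53-fold lower in prt6 erfVII than in the libraries labelled prt6, a log2 fold change of -1.34 (SE 0.15, adjusted p = 2.12e-06). It was 2.17-fold lower than in Col-0, a log2 fold change of -1.12 (SE 0.14, adjusted p = 9.9e-07). The log2 fold change in prt6 over Col-0 was 0.23 (SE 0.13, adjusted p = 0.484). The genes next to it, FMO GS-OX3 and FMO GS-OX4, fell in prt6 erfVII over prt6 (-0.64 and -0.63) and over Col-0 (-0.98 and -0.76). They were not called in prt6 over Col-0 (-0.32 and -0.12), though FMO GS-OX3 was called there by DESeq2 (adjusted p = 0.0237) and without replicate 4 labelled prt6 (adjusted p = 0.00471). FMO GS-OX1, elsewhere on chromosome 1, fell in prt6 erfVII over Col-0 (-0.57, SE 0.12, adjusted p = 0.00073). It fell in prt6 over Col-0 too (-0.46, SE 0.12, adjusted p = 0.0408), but not in 5 of 8 fits without a library. FMO GS-OX5, which overlaps genes on the other strand, was called in no comparison with all libraries. Its log2 fold changes were -0.17 in prt6 erfVII over prt6, -0.12 in prt6 erfVII over Col-0 and 0.06 in prt6 over Col-0. It was called lower in prt6 erfVII over prt6 without replicate 4 labelled prt6 (adjusted p = 0.0213) and in the fit over 12 libraries (adjusted p = 0.0264).

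The shared core enzymes separated prt6 erfVII from both other genotypes. GGP1 (AT4G30530, chromosome 4 from 14920376 to 14922519 on the plus strand) trims glutathione conjugates. Its level was 105, 113, 113 and 114 CPM in prt6 erfVII, against 163, 173, 165 and 199 CPM in the libraries labelled prt6 and 189, 177, 195 and 188 CPM in Col-0. All 4 prt6 erfVII libraries were below the lowest of the other 8, while the libraries labelled prt6 overlapped with Col-0. GGP1 fell in prt6 erfVII over prt6 (-0.64, SE 0.07, adjusted p = 8.66e-07) and over Col-0 (-0.75, SE 0.05, adjusted p = 7.68e-11). GGP1 was at -0.10 (SE 0.06, adjusted p = 0.603) on the log2 scale in prt6 over Col-0. The C-S lyase SUR1 fell in prt6 erfVII, with log2 fold changes of -0.36 over prt6 and -0.56 over Col-0. The glucosyltransferase UGT74B1 fell likewise, with -0.43 and -0.59. Neither SUR1 (-0.18, SE 0.06, adjusted p = 0.139) nor UGT74B1 (-0.15, SE 0.07, adjusted p = 0.396) was called in prt6 over Col-0. Both passed when replicate 4 labelled prt6 was left out (adjusted p = 0.0168 and 0.0221).

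**Figure D4:**
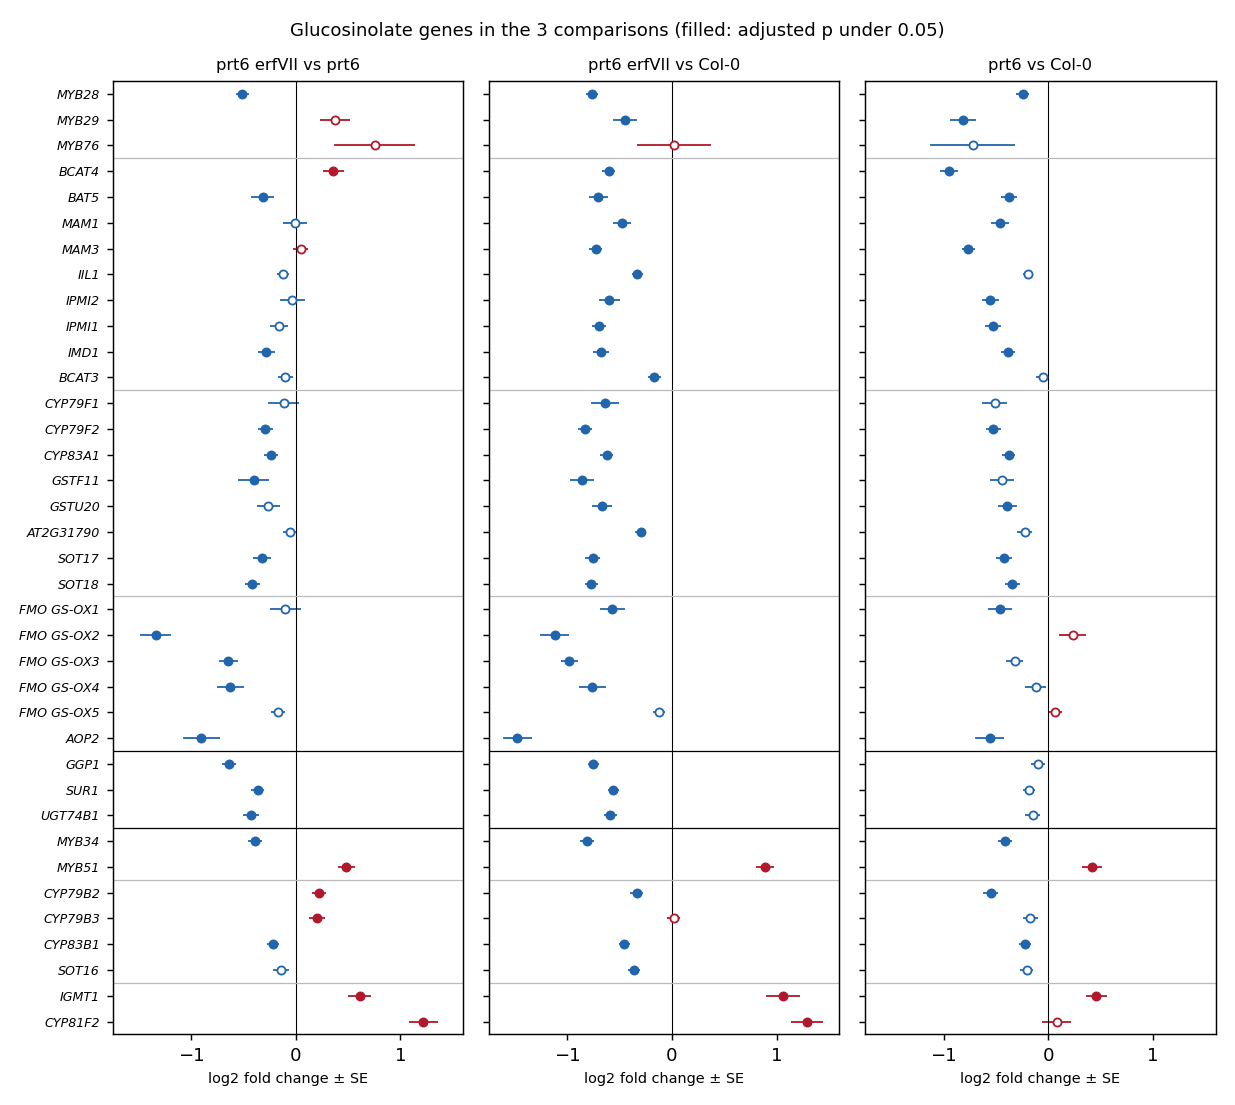
Log2 fold changes with standard errors for the 37 members tested, in rows by branch and step, for prt6 erfVII vs prt6, prt6 erfVII vs Col-0 and prt6 vs Col-0, each as the genotype before "vs" over the one after it; filled points passed an adjusted p of 0.05. In the middle panel 24 of 26 aliphatic points are filled and left of 0, and MYB51, IGMT1 and CYP81F2 are filled and right of 0.

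The indolic regulators went in opposite directions. MYB34 (AT5G60890, chromosome 5 from 24494291 to 24496371 on the plus strand) is an activator prominent in roots. Its level was 24.9, 26.4, 27.2 and 24.8 CPM in prt6 erfVII, against 34.8, 33.6, 33.3 and 34.7 CPM in the libraries labelled prt6 and 45.6, 41.7, 49.0 and 44.7 CPM in Col-0. The 3 genotypes did not overlap, with prt6 erfVII lowest. MYB34 fell in prt6 erfVII over prt6 (-0.39, SE 0.07, adjusted p = 0.000261) and over Col-0 (-0.81, SE 0.06, adjusted p = 8.29e-10). It fell in prt6 over Col-0 (-0.41, SE 0.07, adjusted p = 0.00109). MYB51 (AT1G18570, chromosome 1 from 6389399 to 6391386 on the plus strand) is an activator prominent in shoots and in responses to pathogens. Its level was 21.6, 19.1, 20.2 and 20.3 CPM in prt6 erfVII, against 13.8, 15.1, 14.4 and 15.4 CPM in the libraries labelled prt6 and 10.8, 9.62, 11.2 and 12.3 CPM in Col-0. Again the 3 levels did not overlap, and their order was the reverse of that of MYB34. MYB51 rose in prt6 erfVII over prt6 (0.48, SE 0.08, adjusted p = 0.000134) and over Col-0 (0.89, SE 0.09, adjusted p = 2.86e-08). Its rise in prt6 over Col-0 (0.42, SE 0.10, adjusted p = 0.0211) was lost in 5 of 8 fits without a library. MYB122, a minor activator of the group that lies 0.613 Mb from HRE1, had at most 13 counts per library and was not tested.

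CYP79B2 and CYP79B3, among the 4 indolic core genes, make indole-3-acetaldoxime from tryptophan. CYP79B2 (AT4G39950, chromosome 4 from 18525042 to 18527602 on the plus strand) was at 69.4, 66.6, 66.0 and 71.6 CPM in prt6 erfVII, against 55.6, 54.1, 63.9 and 62.9 CPM in the libraries labelled prt6 and 92.5, 86.6, 90.6 and 76.3 CPM in Col-0. Col-0 was highest and prt6 erfVII lay between, apart from both other genotypes. Its log2 fold change was -0.34 (SE 0.06, adjusted p = 9.04e-05) in prt6 erfVII over Col-0 and -0.55 (SE 0.07, adjusted p = 0.000119) in prt6 over Col-0. Against prt6, CYP79B2 rose in prt6 erfVII (0.22, SE 0.07, adjusted p = 0.0178). CYP79B3 passed the test in prt6 erfVII over prt6 alone (0.20, SE 0.07, adjusted p = 0.0467). These rises of CYP79B2 and CYP79B3 were lost in 3 and 5 of 8 fits without a library, and that of CYP79B3 by DESeq2 as well (adjusted p = 0.053). CYP83B1, which oxidises the aldoxime, fell in prt6 erfVII over prt6 (-0.22, SE 0.06, adjusted p = 0.00809) and over Col-0 (-0.46, SE 0.05, adjusted p = 1.8e-07). Its call in prt6 over Col-0 (-0.22, SE 0.06, adjusted p = 0.048) was lost in 6 of 8 such fits. The sulfotransferase SOT16 fell in prt6 erfVII over Col-0 (-0.36, SE 0.06, adjusted p = 3.41e-05). It lay at -0.14 in prt6 erfVII over prt6 and -0.20 in prt6 over Col-0, neither called. Its libraries labelled prt6 all lay below Col-0, and without replicate 4 labelled prt6 it was called lower there, at -0.26 (adjusted p = 0.00278). SOT16 is 0.621 Mb from HRE1.

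Both indolic side chain members rose in prt6 erfVII. CYP81F2 (AT5G57220, chromosome 5 from 23187840 to 23189902 on the plus strand) hydroxylates the indole ring at position 4, a step needed for defence against fungi. Its level was 18.5, 16.0, 24.978 and 17.8 CPM in prt6 erfVII, against 8.28, 6.61, 9.31 and 9.17 CPM in the libraries labelled prt6 and 8.3999, 6.39, 9.81 and 6.95 CPM in Col-0. The 4 prt6 erfVII libraries lay above all others, and the other genotypes overlapped. CYP81F2 was 2.33-fold higher in prt6 erfVII than in the libraries labelled prt6, a log2 fold change of 1.22 (SE 0.14, adjusted p = 3.54e-06). It was 2.45-fold higher than in Col-0, a log2 fold change of 1.29 (SE 0.15, adjusted p = 5e-06). The libraries labelled prt6 had a log2 fold change of 0.08 (SE 0.14, adjusted p = 0.892) over Col-0. IGMT1 (AT1G21100, chromosome 1 from 7386762 to 7388512 on the minus strand) is a methyltransferase that acts on the hydroxylated product. Its level was 45.5, 44.0, 63.2 and 58.6 CPM in prt6 erfVII, against 32.5, 33.8, 33.7 and 39.5 CPM in the libraries labelled prt6 and 20.6, 23.7, 30.7 and 26.3 CPM in Col-0. The genotypes did not overlap, prt6 erfVII being highest and Col-0 lowest. IGMT1 rose in prt6 erfVII over prt6 (0.61, SE 0.11, adjusted p = 0.000547) and over Col-0 (1.06, SE 0.16, adjusted p = 0.00138). Its rise in prt6 over Col-0 (0.46, SE 0.10, adjusted p = 0.019) was lost in 3 of 8 fits without a library. Only 96.07% of the 75-base windows of its transcript were unique in the genome, the lowest share of any member.

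Other genes of glucosinolate metabolism were followed on lists of 61 genes. These lists and those of sulfur and jasmonate markers below were written with earlier results of these data known. Of 55 tested in prt6 erfVII over prt6, 7 rose and 30 fell, where 16.6% of all genes rose and 14.7% fell. Over Col-0, 9 of 54 rose and 28 fell in prt6 erfVII, where 18.5% of all genes rose and 18.7% fell. The prt6 over Col-0 comparison had 4 of 56 higher and 4 lower, against 1.09% of all genes in each direction. Among 10 further regulators, 5 of 8 tested fell over prt6 and 4 of 8 over Col-0 in prt6 erfVII. Of 15 further genes of synthesis and side chains, 3 rose and 8 fell among 12 tested over prt6, and 3 rose and 7 fell among 11 over Col-0. GSL-OH, a side chain gene among these, was at 510 to 598 CPM in prt6 erfVII. It was at 301 to 342 CPM in the libraries labelled prt6 and 362 to 412 CPM in Col-0. Of 18 genes of transport and breakdown, 17 were tested, with 1 higher and 9 lower over prt6 and 3 higher and 9 lower over Col-0. Of 18 genes of precursor and sulfur supply, 3 rose and 8 fell in each prt6 erfVII comparison, the share that rose being near that of all genes. SDI1, made when sulfur is short, is a repressor of aliphatic synthesis. Its level was 4.34, 2.44, 3.01 and 3.61 CPM in prt6 erfVII, against 51.5, 67.9, 35.8 and 70.9 CPM in the libraries labelled prt6 and 34.9, 31.1, 31.8 and 40.2 CPM in Col-0. All 4 prt6 erfVII libraries lay far below the others. It fell in prt6 erfVII over prt6 (-4.04, SE 0.28, adjusted p = 1.85e-05) and over Col-0 (-3.35, SE 0.13, adjusted p = 1.15e-13). IGMT2, a tandem copy of IGMT1, rose in prt6 erfVII over prt6 (1.33, SE 0.16, adjusted p = 6.43e-06) and over Col-0 (1.86, SE 0.17, adjusted p = 4.9e-09). Other IGMT genes on the lists differed in direction. Unlike CYP81F2, the listed CYP81F1, CYP81F3 and CYP81F4 each had their lowest mean in prt6 erfVII. IGMT4 averaged 216 CPM in prt6 erfVII, 179 CPM in the libraries labelled prt6 and 182 CPM in Col-0. In the same order IGMT5 averaged 50.1, 80.5 and 89.4 CPM and CYP81F4 352, 418 and 467 CPM, both lowest in prt6 erfVII.

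Some genes of glucosinolate breakdown fell in prt6 erfVII, while PEN2 did not. PEN2 was at 176 to 194 CPM in prt6 erfVII, 137 to 157 CPM in the libraries labelled prt6 and 129 to 154 CPM in Col-0. The myrosinase TGG2 fell over Col-0 (-1.16, SE 0.07, adjusted p = 1.37e-11). TGG2 was at 122 to 160 CPM in prt6 erfVII and 293 to 319 CPM in Col-0. The libraries labelled prt6 lay between, at 184 to 213 CPM, without overlap. The epithiospecifier ESP, its modifier ESM1 and the nitrile specifier NSP3 fell over Col-0, with log2 fold changes of -1.96, -1.29 and -1.36. They fell over prt6 as well, with -2.001, -1.33 and -1.29. ESP lies 33.7 kb from RAP2.12, ESM1 5.27 kb from RAP2.2 and NSP3 141 kb from RAP2.3, so that linked segments and the ERFVII alleles themselves cannot be told apart for these 3.

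Markers of sulfur shortage and of jasmonate response moved in prt6 erfVII beside these genes. All 9 sulfur deficiency markers fell in prt6 erfVII, with median log2 fold changes of -1.99 over prt6 and -1.73 over Col-0, where 14.7% and 18.7% of all genes fell. They were SDI1 and SDI2, also on the lists above, with LSU1, LSU2, SULTR1;1, SULTR1;2, SULTR4;2, BGLU28 and APR3. Neither edgeR nor DESeq2 called any in prt6 over Col-0 (0 of 9), and 3 were higher at an unadjusted p under 0.05, as were 6.07% of all genes. Their summed level was 405 to 482 CPM in prt6 erfVII, 820 to 1050.4 CPM in the libraries labelled prt6 and 781 to 887 CPM in Col-0. Of 7 jasmonate markers, 5 fell and 1 rose in prt6 erfVII over prt6, and likewise over Col-0. In these comparisons 16.6% and 18.5% of all genes rose. VSP1, VSP2, LOX2, JR1 and OPR3 fell in both. JAZ1 rose in both, with log2 fold changes of 0.39 over prt6 and 0.33 over Col-0. JAZ10 was called in neither, with log2 fold changes of 0.06 over prt6 and -0.17 over Col-0. In prt6 over Col-0, 0 of 7 were called by edgeR or DESeq2, and 1 was lower at an unadjusted p under 0.05, as were 6.46% of all genes. The jasmonate markers summed to 291 to 363 CPM in prt6 erfVII, 683 to 953 CPM in the libraries labelled prt6 and 656 to 759 CPM in Col-0. LOX2 and JR1 carry most of these sums. Markers of myrosin and guard cells (FAMA, with TGG1 and TGG2 from the lists above) summed to 1163 to 1324 CPM in prt6 erfVII, 1438 to 1698 CPM in the libraries labelled prt6 and 1704 to 2020 CPM in Col-0. TGG1 and TGG2 carry this sum. FAMA alone was at 14.5 to 16.3 CPM in prt6 erfVII, 12.2 to 15.2 CPM in the libraries labelled prt6 and 13.8 to 16.7 CPM in Col-0, and was called in none of the 3 comparisons (log2 fold change 0.16 in prt6 erfVII over prt6). No marker on these 3 lists was at 0 in all libraries of a genotype, and their part in the glucosinolate results was not tested.

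The count for prt6 over Col-0 turned on single libraries. Without replicate 4 labelled prt6, 20 of 26 aliphatic members fell and 1231 genes were called, against 16 and 455 with all 8 libraries. Without Col-0 replicate 2, 11 aliphatic members fell and 281 genes were called. Of the 16 aliphatic calls, 11 held in all 8 fits without a library, the exceptions being MYB28, GSTU20, SOT18, AOP2 and FMO GS-OX1. Neither indolic rise in prt6 over Col-0, of MYB51 and IGMT1, held in all 8. DESeq2 called 20 aliphatic members lower there. The falls in prt6 erfVII over Col-0 held in 23 of 24 cases, the exception being BCAT3. Against prt6, 9 of 12 falls in prt6 erfVII held, the exceptions being BAT5, IMD1 and GSTF11.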

How the data were processed

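Poly(A)-selected RNA of 12 samples was sequenced. By the authors' account, skewer was used for trimming and HISAT2 2.1.0 for alignment to TAIR10, and featureCounts 1.6.0 summed reads with a single correct placement over genes. They deposited raw counts, without normalization. A directional kit was used, but the strand setting of the counting is not given in the sources used here. Of 37885 gene identifiers, 37882 had a match in the TAIR10.1 annotation, the source of coordinates and names.

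edgeR 4.0.16 (R 4.3.3) was fitted to each pair of genotypes (8 libraries), with low counts removed by filterByExpr, TMM factors, a robust quasi-likelihood test and Benjamini-Hochberg adjustment over all genes tested, at a threshold of 0.05. Members below the filter (AOP3, MYB122) were not tested. CPM were TMM-normalized over 12 libraries. The fits were also run on simulated counts with 200 changed genes, fewer than were called in any comparison here. No result given here rests on that run. Replicates were counted as separate samples because they are labelled as biological. All pairs differed by more than sampling noise, though separate preparations of the same RNA could do so too. At 23156637 to 30582461 counts per library, 1 count is 0.0334 to 0.0437 CPM.

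Alternatives were DESeq2 1.42.0, RLE size factors, no filter, a mean of at least 10 counts, 1 fit over 12 libraries, a replicate block, a threshold of 0.01 and each library left out. All 39 members are named. Of the other pathway genes, those with an adjusted p under 0.05, a log2 fold change of at least 1 in size and no overlap of libraries are named. GSL-OH, IGMT4, IGMT5, CYP81F1, CYP81F3, CYP81F4 and PEN2 are named outside that rule. Members and lists were chosen with earlier results of these data known. The study's proteomic and physiological data, and the binding data it took from earlier work, were not analysed here.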

Additional observations from a re-analysis of the deposited data

Results flagged for a closer look

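In 4 of 123 sets of 4 libraries, 1 library lay further from the rest than Dixon's 95% limit allows, where chance gives about 1 in 20. MYB122 was at 0.460 CPM in replicate 3 labelled prt6, against 0.148 to 0.182 CPM in the other 3, which is 13 counts against 4 or 5. IPMI1 was at 62.4 CPM in Col-0 replicate 1, against 57.4 to 57.9 CPM in the others. GGP1 was at 104.5 CPM in prt6 erfVII replicate 1, against 112.9 to 113.7 CPM in the others, so that the low library lay further from the other genotypes than the rest. FMO GS-OX1 was at 7.81 CPM in replicate 1 labelled prt6, against 10.7 to 11.2 CPM in the others, and its call in prt6 over Col-0 was among those lost without that library (adjusted p = 0.131 by edgeR).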

How the results depend on the processing

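Counts of called members stayed within 1.5 times of those given under all alternatives but the following. At an adjusted p under 0.01, aliphatic members higher in prt6 erfVII over prt6 came to 0 and indolic members higher to 3, and in prt6 over Col-0 all genes called came to 221 and indolic members higher to 0. With 1 fit over 12 libraries, aliphatic members higher in prt6 erfVII over prt6 came to 2 and indolic members higher in prt6 over Col-0 to 1. When each library was left out in turn, prt6 erfVII over prt6 gave 1 to 3 aliphatic members higher (3 without prt6 replicate 3, 2 without prt6 erfVII replicate 3), 9 to 13 lower and 3 to 5 indolic members higher (3 without prt6 erfVII replicate 4 or prt6 replicate 1 or 2). In prt6 over Col-0 the ranges were 281 to 1231 genes called (281 without Col-0 replicate 2 and 1231 without prt6 replicate 4), 11 to 20 aliphatic members lower (without the same libraries), 0 to 2 indolic members higher (0 without Col-0 replicate 1 or 2 or prt6 replicate 2) and 0 to 2 shared members lower (2 without prt6 replicate 4). The cause of these shifts was not tested. Sign changes occurred only among uncalled members when a library was left out. In prt6 erfVII over prt6, log2 fold changes ranged from -0.095 to 0.087 for MAM1, from -0.0086 to 0.091 for MAM3, from -0.16 to 0.041 for IPMI2, from -0.24 to 0.0066 for CYP79F1 and from -0.22 to 0.0033 for FMO GS-OX1. In prt6 erfVII over Col-0 they ranged from -0.21 to 0.23 for MYB76 and from -0.039 to 0.048 for CYP79B3, and in prt6 over Col-0 from -0.0054 to 0.20 for CYP81F2.

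Replicate numbers did not pair the samples: deviations of same-numbered libraries correlated by -0.08 to 0.17, over 0.1 in 2 of 12 pairs. With a replicate block, BAT5 (log2 fold change -0.33, adjusted p = 0.0505), GSTF11 (adjusted p = 0.0762) and CYP79B3 (adjusted p = 0.0565) were no longer called by edgeR in prt6 erfVII over prt6. In prt6 over Col-0 with the block, MYB28, GSTU20 and CYP83B1 (adjusted p = 0.0647, 0.0583 and 0.0605) were no longer called and GSTF11 was (adjusted p = 0.0415). DESeq2 changed 1 member's call in prt6 erfVII over prt6 (CYP79B3) and added 4 in prt6 over Col-0 (IIL1, CYP79F1, GSTF11 and FMO GS-OX3). Members at a few counts per library (MYB76, MYB122 and AOP3) are limited by depth.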
